A study of Homo sapiens with 6 samples.

Results

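The genes examined here were the IL-6 family of cytokines and receptors, chosen by name as 10 of the 60748 genes in the deposited table. They were the ligands IL6, IL11, LIF, CLCF1 and CTF1, the receptor chains IL6ST, LIFR and OSMR, the IL-6 binding receptor IL6R, and the feedback inhibitor SOCS3. The values come from RNA sequencing of LX-2 cells, an established line of human hepatic stellate cells, all cultured for 24 h. LX-2FAP cells (3 libraries) stably overexpressed fibroblast activation protein α after lentivirus infection, and LX-2Vector cells (3 libraries) were the negative control. Per the study's methods, the lentiviral vector had a ubiquitin promoter and carried EGFP and puromycin resistance, and stable clones were selected with puromycin, without a statement of how many clones made up each line. The labels give no second line of either kind, so a difference between the lines and a difference due to FAPα cannot be told apart.

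The ligands examined here share one signal-transducing receptor chain, gp130, which is encoded by IL6ST. IL-6 and IL-11 first bind their own receptors and then gather gp130, whereas LIF, cardiotrophin 1 and cardiotrophin-like cytokine factor 1 signal through gp130 paired with the LIF receptor, and oncostatin M through gp130 paired with the oncostatin M receptor or the LIF receptor. The assembled receptor activates JAK kinases and the transcription factor STAT3, which induces SOCS3, and SOCS3 in turn blocks the receptor. In the liver, IL-6 is known for driving the acute-phase response of hepatocytes, and activated stellate cells are known as a source of IL-6 and IL-11.

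Total counts per library ran from 17355700 to 26352060. FAP had 42 to 55 counts in the LX-2Vector libraries and 14805 to 15160 in the LX-2FAP libraries, which matched the labels. Of 10 mesenchymal and stellate markers, 8 were tested, led in LX-2Vector by VIM with 301 ± 7.56 FPKM and COL1A1 with 34.3 ± 3.05 FPKM (SD, n = 3), but DES had 0 or 1 count in every library and COL1A2 had 0.109 ± 0.020 FPKM in LX-2Vector. Hepatocyte markers were near 0, with 0 of 5 tested, TTR at 0 counts in all libraries (which allows up to 0.173 CPM in the shallowest, for counting error only) and CYP3A4 and ALB at 1 to 6 counts. The summed level was 13.9 to 17.6 CPM in LX-2Vector and 14.6 to 18.9 CPM in LX-2FAP for 6 leukocyte markers, led by PTPRC, LYZ and CD14 (5.39, 4.64 and 3.16 CPM in LX-2Vector), and 4.47 to 7.58 and 3.63 to 5.67 CPM for 4 epithelial markers, led by KRT7 and KRT19. For 4 endothelial markers, led by PECAM1 and KDR, the sum was 9.40 to 10.6 CPM in LX-2Vector and 7.12 to 8.88 CPM in LX-2FAP. A call, here and throughout, is an edgeR adjusted p under 0.05. Of the markers tested, PDGFRB, COL1A1, COL3A1 and VWF were called lower and VIM higher, where 5.29% of all tested genes were called. Their log2 fold changes were -0.38, -0.40, -0.69, -1.06 and 0.13, in this order. None of these calls was made without LX-2FAP replicate 3, a fit that called 26 genes in all. With each of the 6 libraries left out in turn, COL3A1 was called in 5 fits, COL1A1 in 3, PDGFRB and VWF in 2 each and VIM in 1. The part of these markers in the results on the family was not tested.

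All 10 genes were transcribed at a level that passed the filter on low counts, and in both groups IL6ST stood first and OSMR second. Levels of different genes are compared here as FPKM, that is, counts scaled to gene length and to the depth of the library, as mean ± SD over 3 libraries. In LX-2Vector, IL6ST had 91.1 ± 4.44 FPKM and OSMR 50.3 ± 3.58 FPKM, and their libraries did not overlap. LIFR followed at 10.8 ± 0.666 FPKM, IL11 at 10.7 ± 1.04 FPKM and CLCF1 at 9.15 ± 1.30 FPKM, and neighbours among these 3 did not differ beyond their spread. SOCS3 had 5.83 ± 0.441 FPKM and LIF 1.99 ± 0.166 FPKM, each apart from its neighbours. At the end stood IL6R at 1.69 ± 0.143 FPKM, CTF1 at 1.54 ± 0.169 FPKM and IL6 at 1.5 ± 0.29 FPKM, which overlapped one another. In LX-2FAP the order differed at the closest pairs, where IL11 (11.4 ± 0.972 FPKM) stood above LIFR (10.5 ± 0.200 FPKM) without overlap, and IL6R (1.73 ± 0.193 FPKM) overlapped LIF (1.52 ± 0.0878 FPKM).

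**Figure D1:**
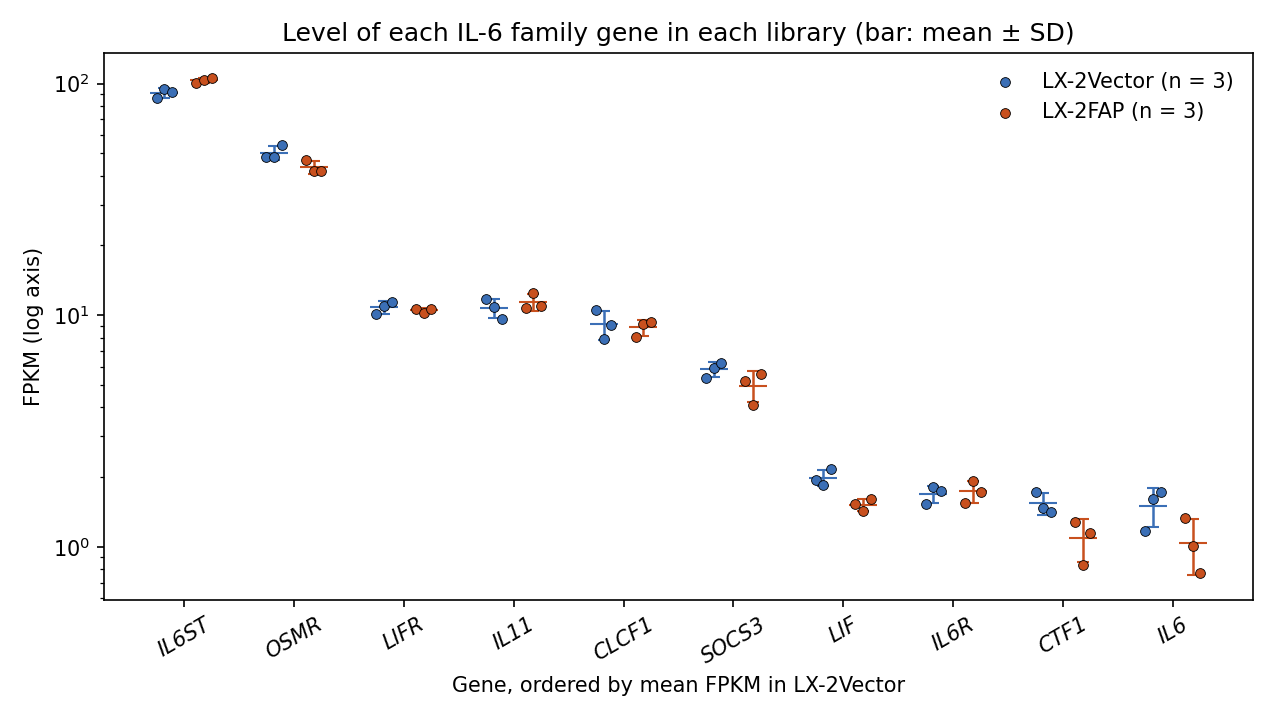
Deposited FPKM of the 10 genes on a log axis, ordered by the mean in LX-2Vector, with a point for each of 3 LX-2Vector (blue) and 3 LX-2FAP (orange) libraries and bars for the mean ± SD. IL6ST lay between 86.3 and 105.7 FPKM in all libraries and IL6 between 0.774 and 1.72 FPKM, and the groups did not overlap for IL6ST, OSMR, LIF and CTF1 (nor, as normalized counts per library, for 26.4% of all tested genes).

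The 2 most abundant receptor chains are described first, with the 250 reference bases before the RefSeq start of each gene, because these chains pair with each other in one receptor and had opposite directions of difference. Each is printed 5′ to 3′ on the strand of the gene (RefSeq, GRCh38.p14). Capitals mark a match to one of the motifs searched on both strands: STAT (TTCNNNGAA), NF-kB (GGG, any 2 bases, then TTTCC), AP-1 (TGANTCA), CRE (TGACGTCA), EGR1 (GCGNGGGCG) and C/EBP (TTGCNNAA).
IL6ST promoter (chr5:55994964-55995213, minus strand): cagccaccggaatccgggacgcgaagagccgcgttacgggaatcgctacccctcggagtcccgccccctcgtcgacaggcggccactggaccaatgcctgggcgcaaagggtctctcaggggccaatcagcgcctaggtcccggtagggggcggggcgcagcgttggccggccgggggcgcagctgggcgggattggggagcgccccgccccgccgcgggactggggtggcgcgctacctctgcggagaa
OSMR promoter (chr5:38845762-38846011, plus strand): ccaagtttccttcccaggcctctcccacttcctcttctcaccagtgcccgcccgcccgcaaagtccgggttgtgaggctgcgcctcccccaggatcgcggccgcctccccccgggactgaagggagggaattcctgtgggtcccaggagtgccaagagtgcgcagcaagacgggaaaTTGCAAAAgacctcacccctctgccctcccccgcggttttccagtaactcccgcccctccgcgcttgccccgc
The IL6ST window had a GC content of 73.6%, against a median of 58% over 35116 promoters, and held none of these motifs. The OSMR window had a GC content of 66.4% and held 1 C/EBP match (TTGCAAAA, bases -73 to -66 from the start), a motif found in 9.05% of all promoters. A match is a string of letters and was not tested as a binding site.

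IL6ST, which encodes gp130, was the only one of the 10 genes called, in a comparison that called 5.29% of all tested genes. It lies on chromosome 5 (ENSG00000134352, GRCh38, 55935095 to 55994993, minus strand, protein coding). Its level was 86.3, 94.96 and 92.1 FPKM in LX-2Vector replicates 1 to 3 and 100.7, 103.7 and 105.7 FPKM in LX-2FAP replicates 1 to 3, so every LX-2FAP library was above every LX-2Vector library. The count behind each value was between 16674 and 24647. The IL6ST log2 fold change was 0.21 (SE 0.04, 95% interval 0.13 to 0.30, edgeR quasi-likelihood adjusted p = 0.0115), a rise of 15.7%. IL6ST was not called without LX-2FAP replicate 2 (log2 fold change 0.21, edgeR adjusted p = 0.0514) or without LX-2FAP replicate 3 (0.20, adjusted p = 0.101). In whole cultures, a change in the share of cells of one kind and a change in RNA per cell cannot be told apart. A gene on the other strand covers 8.58% of IL6ST exon bases and had 0 counts in every library. Of the 75-base words of IL6ST, 1.12% occur in transcripts of other genes. These are its pseudogene IL6STP1, which had 1 to 5 counts, and AC015922.3, which had 27 to 41 counts.

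OSMR, the receptor chain that binds oncostatin M together with gp130, had the opposite direction but missed the threshold. It lies on chromosome 5 as well (ENSG00000145623, 38845858 to 38945596, plus strand). Its level was 48.1, 48.4 and 54.4 FPKM in LX-2Vector and 46.6, 42.1 and 41.9 FPKM in LX-2FAP. The groups did not overlap, and replicate 1 had the highest value of the 3 LX-2FAP libraries. The OSMR log2 fold change was -0.18 (SE 0.05, 95% interval -0.29 to -0.07, edgeR adjusted p = 0.0569). Without LX-2FAP replicate 1 it was called (-0.23, adjusted p = 0.0119), and without LX-2Vector replicate 3 the value was -0.11. OSMR shares 3.19% of its exon bases with RICTOR on the other strand, which had 6006, 4309 and 5339 counts in LX-2Vector and 6375, 4617 and 5563 in LX-2FAP. Strand use in counting was not stated in the sources used here, so how far RICTOR reads enter the OSMR count was not tested. Within each library, the IL6ST level was 1.79, 1.96 and 1.69 times the OSMR level in LX-2Vector and 2.16, 2.46 and 2.52 times in LX-2FAP (FPKM over FPKM). This ratio had to be higher in all LX-2FAP libraries, since IL6ST was above and OSMR below without overlap. It is therefore not a further result. No test was made of the ratio.

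LIFR, the chain that LIF needs beside gp130, lies near OSMR on chromosome 5 (ENSG00000113594, 38474963 to 38608354, minus strand). It had 10.1, 10.96 and 11.4 FPKM in LX-2Vector and 10.6, 10.3 and 10.6 FPKM in LX-2FAP, and the LX-2FAP libraries lay inside the range of the LX-2Vector libraries. The LIFR log2 fold change was -0.01 with a 95% interval of -0.11 to 0.09 (SE 0.05, edgeR adjusted p = 0.912), the narrowest interval among the genes that were not called. Its exons share 5.30% of their bases with LIFR-AS1 on the other strand, which had 17 to 31 counts against 2276 to 3232 for LIFR.

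IL6R, which binds IL-6 itself, was low beside its signalling partner. It lies on chromosome 1 (ENSG00000160712, 154405193 to 154469450, plus strand) and shares no exon bases with another gene. Its level was 1.53, 1.80 and 1.74 FPKM in LX-2Vector and 1.54, 1.93 and 1.73 FPKM in LX-2FAP, and the ranges of the groups overlapped. The IL6R log2 fold change was 0.07 (SE 0.10, 95% interval -0.15 to 0.28, edgeR adjusted p = 0.757). The IL6ST level was 52.6 to 56.4 times the IL6R level in LX-2Vector and 53.7 to 65.2 times in LX-2FAP (FPKM over FPKM), and these ranges overlapped.

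Of the 5 ligands none was called, and IL11 and CLCF1 together made up most of the summed ligand level. The promoter windows of IL6 and IL11 are shown as for the receptors, because these genes stood lowest and highest among the ligands in both groups. For IL6 the window before the RefSeq start lies inside the longer gene span of GENCODE release 29.
IL6 promoter (chr7:22726950-22727199, plus strand): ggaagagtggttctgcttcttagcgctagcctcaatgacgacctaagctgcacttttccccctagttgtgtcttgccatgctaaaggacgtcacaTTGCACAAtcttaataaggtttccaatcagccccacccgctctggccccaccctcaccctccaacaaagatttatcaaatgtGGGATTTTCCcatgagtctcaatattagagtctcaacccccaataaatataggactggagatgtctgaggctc
IL11 promoter (chr19:55370464-55370713, minus strand): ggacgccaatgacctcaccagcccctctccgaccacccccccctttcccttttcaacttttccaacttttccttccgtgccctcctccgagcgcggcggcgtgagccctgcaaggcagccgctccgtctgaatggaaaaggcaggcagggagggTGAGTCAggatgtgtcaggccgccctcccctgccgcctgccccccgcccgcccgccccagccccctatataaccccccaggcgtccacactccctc
The IL6 window had a GC content of 47.6% and held a C/EBP match (TTGCACAA, -155 to -148) and an NF-kB match (GGGATTTTCC, -73 to -64), of which the latter motif was found in 1.73% of all promoters. The IL11 window had a GC content of 67.2% and held 1 AP-1 match (TGAGTCA, -96 to -90), a motif found in 6.57% of all promoters. Of all 10 genes, 7 had an entry among the promoters, and LIF, CLCF1 and CTF1 had none. The IL6R window, partly inside the longer gene span of GENCODE, held none of the 6 motifs. The LIFR window, inside the longer gene span of GENCODE, held 1 STAT match (TTCCTTGAA, -165 to -157). For SOCS3 the RefSeq window (chr17:78360926-78361175) lies upstream of the GENCODE gene and does not adjoin its start, so its letters are not those just before the GENCODE start and no motif result is given.

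IL11, a cytokine known to act on stellate cells and fibroblasts in an autocrine way, lies on chromosome 19 (ENSG00000095752, 55364389 to 55370463, minus strand). It had 11.7, 10.8 and 9.64 FPKM in LX-2Vector and 10.7, 12.5 and 10.9 FPKM in LX-2FAP, and the groups overlapped. The IL11 log2 fold change was 0.10 (SE 0.08, 95% interval -0.07 to 0.27, edgeR adjusted p = 0.49). With 1 library left out it ran from 0.035 (without LX-2FAP replicate 2) to 0.18 (without LX-2Vector replicate 1), and was 0.037 without LX-2Vector replicate 3, and IL11 was not called in any of these fits. Within a library IL11 gave 40.2% to 45.8% of the summed FPKM of the 5 ligands in LX-2Vector and 45.9% to 50.04% in LX-2FAP. These ranges nearly touched. The share also depends on the other ligands, of which IL6, LIF and CTF1 had negative log2 fold changes (-0.47, -0.36 and -0.46). It is therefore not a further result on IL11, whose level was not called, and no test was made of the share.

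CLCF1, a ligand that acts through gp130 and the LIF receptor with the help of the CNTF receptor, lies on chromosome 11 (ENSG00000175505, 67364168 to 67374177, minus strand). Its level was 10.5, 7.91 and 9.05 FPKM in LX-2Vector and 8.04, 9.20 and 9.34 FPKM in LX-2FAP, all LX-2FAP values lying inside the LX-2Vector range. The CLCF1 log2 fold change was -0.04 (SE 0.10, 95% interval -0.25 to 0.18, edgeR adjusted p = 0.875). CLCF1 gave 33.4% to 38.8% of the summed ligand level in LX-2Vector and 35.1% to 39.3% in LX-2FAP. Another gene on the same strand shares 3.09% of CLCF1 exon bases and had 0 or 1 count in each library.

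LIF, leukaemia inhibitory factor, was the ligand closest to the threshold. It lies on chromosome 22 (ENSG00000128342, 30240447 to 30246851, minus strand). LIF had 1.95, 1.85 and 2.17 FPKM in LX-2Vector and 1.53, 1.43 and 1.61 FPKM in LX-2FAP, so all LX-2FAP libraries were below all LX-2Vector libraries. The LIF log2 fold change was -0.36 (SE 0.11, 95% interval -0.59 to -0.13, edgeR adjusted p = 0.0634), from 101 to 199 counts per library. Genes on the other strand share 6.73% of its exon bases, and LIF-AS1 among them had 0 to 2 counts.

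IL6 and CTF1 had the most negative fold changes of the family, on the fewest counts. IL6 lies on chromosome 7 (ENSG00000136244, 22725884 to 22732002, plus strand) and had 64, 58 and 75 counts in LX-2Vector and 67, 38 and 34 counts in LX-2FAP. In FPKM the IL6 level was 1.17, 1.62 and 1.72 in LX-2Vector and 1.34, 1.01 and 0.774 in LX-2FAP, and LX-2FAP replicate 1 lay inside the LX-2Vector range. The IL6 log2 fold change was -0.47 (SE 0.21, 95% interval -0.90 to -0.03, edgeR adjusted p = 0.198). It was -0.71 without LX-2FAP replicate 1 (adjusted p = 0.0501) and -0.29 without LX-2FAP replicate 3 (adjusted p = 0.567). Genes on the other strand share 20.7% of IL6 exon bases, and STEAP1B among them had 1 to 8 counts. Strand use in counting was not stated, so how reads over the shared bases entered the IL6 count was not tested. CTF1, which encodes cardiotrophin 1, lies on chromosome 16 (ENSG00000150281, 30896607 to 30903560, plus strand). It had 1.73, 1.47 and 1.41 FPKM in LX-2Vector and 1.28, 0.834 and 1.15 FPKM in LX-2FAP, from 25 to 75 counts, and the groups did not overlap. The CTF1 log2 fold change was -0.46 (SE 0.19, 95% interval -0.86 to -0.06, edgeR adjusted p = 0.158).

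SOCS3, the feedback inhibitor that STAT3 induces, had a negative but uncertain difference. It lies on chromosome 17 (ENSG00000184557, 78356778 to 78360077, minus strand) and shares no exon bases with another gene. Its level was 5.36, 5.90 and 6.23 FPKM in LX-2Vector and 5.18, 4.11 and 5.58 FPKM in LX-2FAP, where LX-2FAP replicate 2 was lowest and replicate 3 lay inside the LX-2Vector range. The SOCS3 log2 fold change was -0.19 (SE 0.10, 95% interval -0.41 to 0.02, edgeR adjusted p = 0.284). It was -0.083 without LX-2FAP replicate 2, and with any other single library left out it lay between -0.28 and -0.13.

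Counted over the family, 1 of 10 genes was called higher and 0 were called lower. Of all 18275 tested genes, 5.29% were called, 2.57% higher and 2.73% lower (469 and 498 genes, or 239 and 809 with library size alone in place of TMM), so 1 call among 10 is not a result about the family. CPM did not overlap between the groups for 4 of the 10 genes (IL6ST above, LIF, CTF1 and OSMR below), against 26.4% of all tested genes, 13% above and 13.4% below. An unadjusted p under 0.05 was found for 5 of the 10 genes, 4 of them with a negative fold change, against 22.2% of all tested genes, 11.6% with a negative and 10.5% with a positive one. The median log2 fold change was -0.11 over the 10 genes and -0.01 over all tested genes. Fold changes were negative for 7 of the 10, against 9685 of the 18275 tested genes. Among the 7, the intervals of CLCF1, LIFR and SOCS3 included 0.

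**Figure D2:**
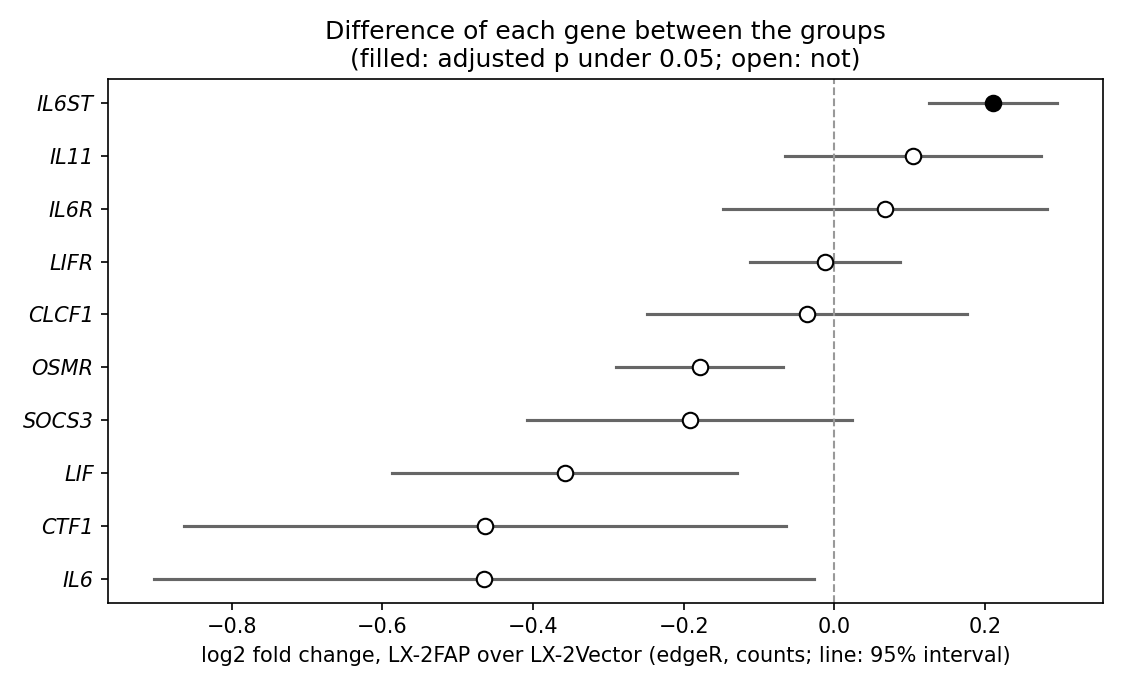
Log2 fold change of each gene, LX-2FAP over LX-2Vector (n = 3 each), from edgeR on the deposited counts, with 95% intervals as lines; the filled point is the gene with an adjusted p under 0.05. The interval of IL6ST lies above 0, those of OSMR, LIF, CTF1 and IL6 lie below 0 without passing the adjusted threshold, and those of the other 5 genes include 0.

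The remaining ligands and receptors of the family, taken from a list of known ones, were mostly scarce. Of 6 other genes on the ligand side 2 were tested and 0 were called. CNTF, ciliary neurotrophic factor, had 1.16 ± 0.0702 FPKM in LX-2Vector and 1.17 ± 0.208 FPKM in LX-2FAP. OSM, the ligand of OSMR, had 5, 0 and 0 counts in LX-2Vector and 1, 0 and 0 in LX-2FAP, so the transcript of its receptor was abundant where that of the ligand was at or near the limit of detection. IL27, EBI3 and IL31 had 0 to 3 counts in every library. Of 4 other receptors 3 were tested. IL27RA, the receptor chain for IL-27, had 3.56, 3.54 and 3.86 FPKM in LX-2Vector and 2.97, 2.68 and 2.83 FPKM in LX-2FAP, and was called lower (log2 fold change -0.34 with an SE of 0.09, adjusted p = 0.0443 by edgeR). IL11RA, the receptor that IL-11 binds, had 0.522 ± 0.0394 FPKM in LX-2Vector and 0.407 ± 0.0437 FPKM in LX-2FAP (log2 fold change -0.33 with an SE of 0.18, adjusted p = 0.285 by edgeR). CNTFR had 1 count in each LX-2Vector library and 0 in each LX-2FAP library, under the floor of 3 counts in both groups.

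Among 9 genes of the JAK-STAT core, all were tested, 1 was called higher and 1 lower, where 5.29% of all tested genes were called. PTPN11, a phosphatase recruited to gp130 that links it to the MAP kinase pathway, had 77.3, 82.2 and 79.2 FPKM in LX-2Vector and 84.2, 91.7 and 89.0 FPKM in LX-2FAP (log2 fold change 0.18 with an SE of 0.04, adjusted p = 0.0233 by edgeR). TYK2, a JAK kinase, had 12.4, 12.7 and 12.4 FPKM in LX-2Vector and 10.9, 10.2 and 11.0 FPKM in LX-2FAP (log2 fold change -0.19 with an SE of 0.05, adjusted p = 0.0279 by edgeR). The median log2 fold change of the list was -0.07. None of 12 other negative regulators was called by edgeR, 0 had an unadjusted p under 0.05, and their log2 fold changes ran from -0.08 to 0.19; PTPN1 (38.9 ± 2.07 FPKM) and SOCS4 (21.6 ± 1.52 FPKM) were the most abundant in LX-2Vector. Neither ADAM10 (13.7 ± 0.461 FPKM in LX-2Vector) nor ADAM17 (5.28 ± 0.152 FPKM), the proteases that can shed IL6R from the cell surface, was called.

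Of 14 STAT3 target genes, all tested, 1 was called higher and 3 lower (5.29% of all tested genes were called), with a median log2 fold change of -0.01 that equalled the median of all tested genes at this precision. CEBPD, a transcription factor of the acute-phase response, had 2.42, 2.85 and 4.17 FPKM in LX-2Vector and 2.01, 1.40 and 1.2 FPKM in LX-2FAP (log2 fold change -0.97 with an SE of 0.22, adjusted p = 0.0233 by edgeR). JUNB, a subunit of AP-1, had 9.68, 10.7 and 10.7 FPKM in LX-2Vector and 7.72, 7.49 and 7.44 FPKM in LX-2FAP (log2 fold change -0.42 with an SE of 0.08, adjusted p = 0.00823 by edgeR). BCL3, a partner of NF-kB subunits, had 2.72, 2.66 and 2.98 FPKM in LX-2Vector and 2.24, 1.90 and 1.86 FPKM in LX-2FAP (log2 fold change -0.44 with an SE of 0.11, adjusted p = 0.0293 by edgeR). CCND1, the G1 cyclin, was the gene called higher, with 155.7, 156.4 and 157.4 FPKM in LX-2Vector and 189.3, 204.3 and 204.6 FPKM in LX-2FAP (log2 fold change 0.38 with an SE of 0.04, adjusted p = 0.000401 by edgeR), and TIMP1, an inhibitor of metalloproteinases, was not called (131.2 ± 1.81 and 135.1 ± 3.07 FPKM). Each of these genes is also a target of other pathways. Of 12 acute-phase genes only SERPINA1 was tested, with 2.73 ± 0.232 FPKM in LX-2Vector and 2.21 ± 0.135 FPKM in LX-2FAP (log2 fold change -0.28 with an SE of 0.09, adjusted p = 0.0809 by edgeR). CRP was at 0 counts in all libraries and SAA1 had 1 to 6 counts.

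**Figure D3:**
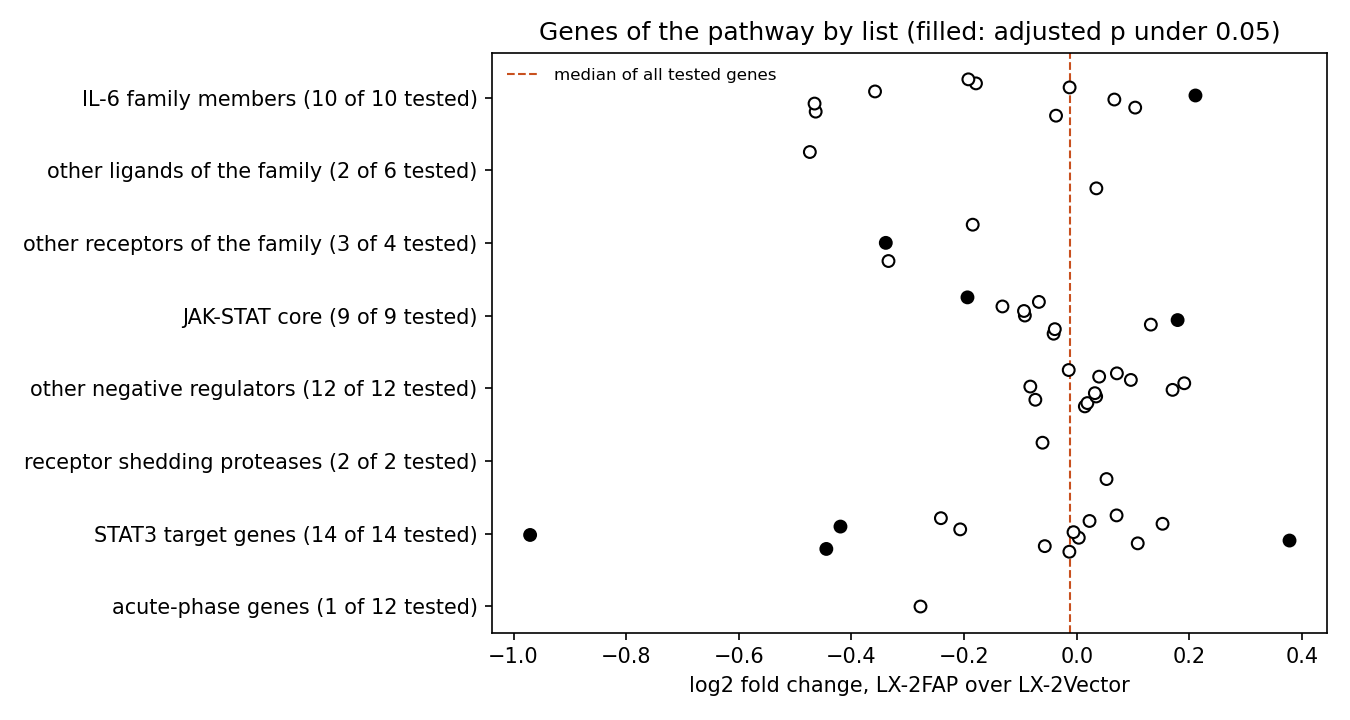
Log2 fold changes (LX-2FAP over LX-2Vector) of the tested genes in each list, with the 10 family members on top; filled points have an adjusted p under 0.05 and the dashed line is the median of all tested genes, -0.01. Filled points lie on both sides of the line: IL6ST, PTPN11 and CCND1 to the right, and IL27RA, TYK2, CEBPD, BCL3 and JUNB to the left.

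Over the 59 genes of these lists, 43 were tested, 2 were called higher and 5 lower, beside 2.57% higher and 2.73% lower over all tested genes. Without LX-2FAP replicate 3 only CCND1 of the 7 was called, and without LX-2FAP replicate 2 or LX-2Vector replicate 3 only JUNB and CCND1 were. Without LX-2Vector replicate 1 the calls of TYK2, PTPN11, BCL3 and IL27RA were lost, and without LX-2Vector replicate 2 those of TYK2, BCL3 and IL27RA.

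The values of the 5 members whose intervals left out 0 kept their sign under every setting tried that gave an adjusted p. IL6ST was called in 10 of 14 such settings, with log2 fold changes from 0.18 to 0.25, and OSMR in 4 of 14, from -0.23 to -0.11. LIF was called in 1 of 14, with library size alone (log2 fold change -0.39, edgeR adjusted p = 0.0476). CTF1 and IL6 were called in 0 of 13 each, with log2 fold changes from -0.60 to -0.29 and from -0.71 to -0.29. With the study's cutoff of a fold change over 1.2 and an unadjusted p under 0.05, IL6, LIF and CTF1 would be selected as lower and IL6ST would not be selected, since its change was below 1.2-fold. That cutoff selected 7.89% of all tested genes, of which 265 were higher and 1176 lower, so most genes it selected were lower.

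**Figure D4:**
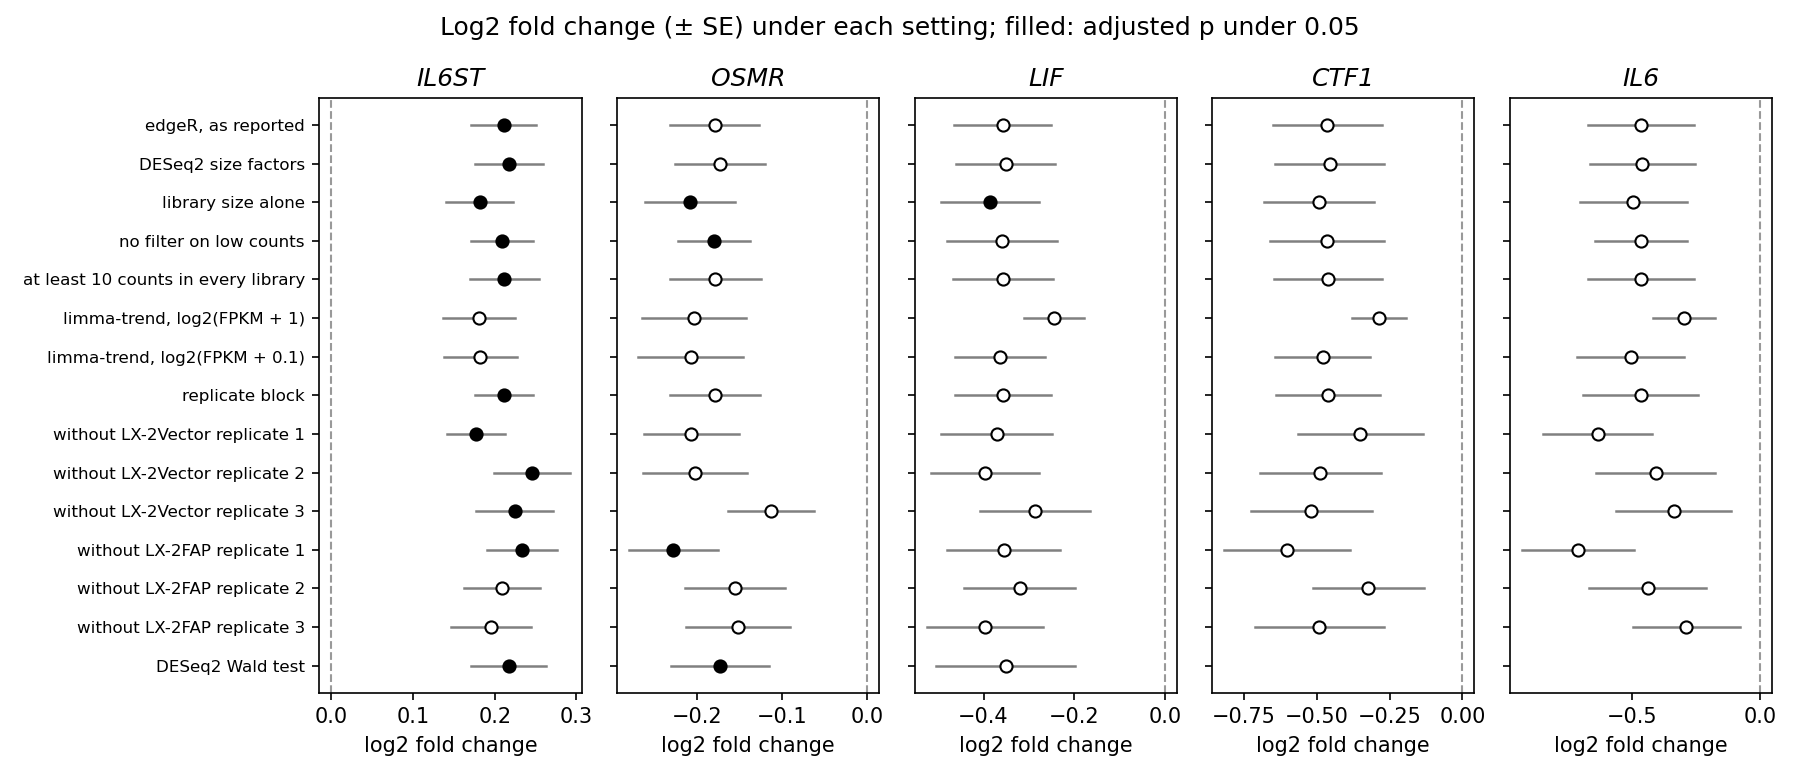
Log2 fold change ± SE of IL6ST, OSMR, LIF, CTF1 and IL6 under edgeR as reported and 14 other settings (each horizontal axis has its own scale; filled points have an adjusted p under 0.05). IL6ST stays to the right of 0 and the other 4 genes to the left, with the DESeq2 point absent for CTF1 and IL6, which had no adjusted p there.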

How the data were processed

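RNA sequencing covered 3 LX-2Vector and 3 LX-2FAP libraries, grouped by sample title. The authors aligned reads with HISAT2 2.0.5 and counted them per gene with featureCounts 1.5.0-p3; the deposited table holds whole-number counts, not normalized, and FPKM values, which the authors derived from the count and the length of each gene. The submitters' processing notes name hg18, but 58337 of 60605 Ensembl identifiers were in GENCODE release 29 (GRCh38), the source of the gene coordinates given here. Whether the authors' counting used strand was not given in the sources used here. Deposited descriptions of GO and KEGG terms were not used, except in the closing observation.

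Counts were tested with the edgeR 4.0.16 quasi-likelihood test after TMM normalization and the default filter (minimum count of 10, minimum total of 15), without covariates, on 18275 genes, with 2-sided p-values and Benjamini-Hochberg adjustment over all of them. Calls were made at an adjusted p under 0.05. Standard errors came from the test statistic. With 3 libraries against 3, an exact permutation test cannot give a 2-sided p below 0.1, so none was made. In simulated counts with known changes, the test recovered 44.8% of 1.2-fold changes, 66.7% of 1.5-fold changes and 90.5% of 2-fold changes. Of its calls there, 3% were false. A gene with a small change can thus often go without a call. No replicates agreed within counting noise (chi-square from 2.06 to 5.02 per degree of freedom). The labels do not say whether libraries came from separate cultures, so p-values measure only the spread between these libraries. The labels give no batch.

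The 10 members, the lists of pathway and marker genes and the tests were chosen with earlier results of these data known. Genes named are all members, FAP, called genes of each list, the 2 most abundant genes of each list in LX-2Vector and marker genes at 0 counts, except some that are not reported here; OSM, IL27, EBI3, IL31, CNTFR, DES, COL1A2, PTPRC, CRP, genes that overlap members, the called markers and the genes of the closing observation fall outside this rule and were chosen after their values were seen. Alternatives were size factors of DESeq2 1.42.0 or library size alone in edgeR, the Wald test of DESeq2, no filter on low counts or at least 10 counts in every library, limma-trend (limma 3.58.1) on log2 FPKM with a pseudocount of 1 or 0.1, a replicate block, each library left out, an adjusted p under 0.01 and the study's cutoff.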

Additional observations from a re-analysis of the deposited data

How the results depend on the processing

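IL6ST kept its positive sign in all 14 alternatives that refitted it, and lost its call in 4 (limma-trend with each pseudocount, with a log2 fold change of 0.18 and adjusted p of 0.12 and 0.117, and without LX-2FAP replicate 2 or 3). The number of members called was 2 with the DESeq2 Wald test (IL6ST and OSMR; IL6 and CTF1 had no adjusted p there), 3 with library size alone (IL6ST, OSMR and LIF), 2 with no filter on low counts, 0 with limma-trend at either pseudocount, where 5 had an unadjusted p under 0.05, 0 at an adjusted p under 0.01 and 3 at the study's cutoff (IL6, LIF and CTF1). Genes called over the whole table were 1606 with no filter on low counts, 2 with limma-trend at either pseudocount and 116 at an adjusted p under 0.01, against 967. Pathway list genes called were 0 with limma-trend at either pseudocount, where 15 had an unadjusted p under 0.05, and 2 at an adjusted p under 0.01, against 7. The cause of the difference between limma-trend and edgeR was not tested.

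With each of the 6 libraries left out in turn, members called ran from 0 to 2, pathway list genes called from 1 to 10 and genes called from 26 (without LX-2FAP replicate 3) to 1949 (without LX-2FAP replicate 1). The sign reversed in some of these fits for genes near 0: the log2 fold change ran from -0.12 to 0.087 for CLCF1, from -0.057 to 0.033 for LIFR and from -0.011 to 0.15 for IL6R.

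The labels give both groups replicate numbers 1 to 3 but do not say that a number marks a shared culture, so the numbers were not taken as pairs. Deviations from the group means correlated by -0.136, 0.199 and -0.0775 within the 3 same-numbered pairs over 11556 genes. Between different numbers the correlations ran from -0.347 (LX-2Vector replicate 3 with LX-2FAP replicate 2) to 0.376 (LX-2Vector replicate 3 with LX-2FAP replicate 1). With the replicate number as a block 1 member (IL6ST), 7 pathway list genes and 975 genes were called; IL27RA lost its call, MCL1 gained one, and no member changed call. Depth limits IL6 and CTF1 most, with at most 75 counts per library.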

Other observations

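The deposited table marks 124 genes other than the members as part of the KEGG JAK-STAT signaling pathway, and 100 of them were tested. This set was chosen after seeing the data, and it is described without a test. Of the 100, 4 were called higher and 6 lower in LX-2FAP (10%, against 5.29% of all tested genes), with a median log2 fold change of -0.01. These calls include CCND1, PTPN11, TYK2, IL27RA and PDGFRB, which were reported above, so they are not separate from the earlier counts. For the other called genes, fits with a library left out were not examined. Beyond the genes already named, BCL2, an inhibitor of apoptosis, had 7.06 ± 0.447 CPM in LX-2Vector and 9.52 ± 0.709 in LX-2FAP (mean ± SD over 3 libraries, log2 fold change 0.43 with an SE of 0.10, adjusted p = 0.0263 by edgeR), and AOX1, an aldehyde oxidase, had 34.7 ± 1.44 and 45.3 ± 1.92 CPM (log2 fold change 0.39 with an SE of 0.06, adjusted p = 0.00411 by edgeR). STAT6, which mediates IL-4 and IL-13 signals, had 155.2 ± 3.91 and 133.5 ± 4.73 CPM (log2 fold change -0.22 with an SE of 0.04, adjusted p = 0.0129 by edgeR), and STAT2, which mediates type I interferon signals, had 133.2 ± 0.893 and 115.1 ± 7.13 CPM (log2 fold change -0.21 with an SE of 0.05, adjusted p = 0.022 by edgeR). IL21R had 0.779 ± 0.189 and 0.327 ± 0.0903 CPM and was called lower on few counts (log2 fold change -1.24 with an SE of 0.34, adjusted p = 0.0474 by edgeR).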
